A study of Homo sapiens with 18 samples.

Results

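The 10 genes described here encode the machinery that copies and transcribes mitochondrial DNA and 2 of its nuclear regulators. They are TFAM, POLG2, POLRMT, TFB1M, TFB2M, SSBP1, TOP1MT, MGME1, PPARGC1A and NRF1, and they were taken by symbol from a table of ATAC-seq read counts for 54425 genes. All 10 were in the table, and all 10 were among the 17660 genes that passed the filter on low counts. ATAC-seq uses a transposase that inserts into open DNA. A count therefore depends on how accessible a gene was in isolated nuclei, though not on that alone. It does not report how much RNA or protein the gene made.

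The cells were HEK293T, a human embryonic kidney line, in 3 settings that carried fusion genes of the t(4;11) translocation of acute leukaemia. MLL-AF4 cells held a doxycycline-inducible MLL-AF4 construct, and AF4-MLL cells held a doxycycline-inducible construct of the reciprocal fusion. Co-expression cells expressed MLL-AF4 constitutively and AF4-MLL from an inducible construct. Transgenes were induced with 1 µg/ml doxycycline for 48 h, and in the co-expression model the methods describe AF4-MLL as transfected transiently and as a pulse that ended on day 3 with a change of medium. Each setting was sampled on day 3 and day 28 with 3 replicates, which gave 18 libraries in 6 groups. All settings share the HEK293T background and a fusion construct, and without labelled mock libraries the settings were compared with each other and day 28 with day 3. A kidney line with an introduced construct limits the groups as a model of leukaemia.

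Mitochondrial DNA is packed into nucleoids by TFAM, which also bends the promoters at which the mitochondrial RNA polymerase POLRMT starts together with TFB2M. TFB1M, a relative of TFB2M, methylates the small ribosomal RNA. POLG2 is the accessory, processivity subunit of the mitochondrial DNA polymerase, SSBP1 coats the single strands, MGME1 trims the ends of newly made DNA, and TOP1MT relieves supercoils. NRF1 is a transcription factor that binds the promoters of many of these genes, and PPARGC1A (PGC-1α) is a coactivator that works with it to raise mitochondrial content.

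The genes lie on separate chromosomes apart from SSBP1 and NRF1, which are both on chromosome 7. On GRCh38.p14, the assembly of the RefSeq table, TFAM spans chr10:58385410-58399220 on the plus strand, POLRMT chr19:617221-633537 on the minus strand, TFB1M chr6:155229871-155314484 on the minus strand and POLG2 chr17:64477785-64497054 on the minus strand. The set of RefSeq promoters used here held 8 of the 10 genes, without TOP1MT and NRF1. Its windows of 250 bases upstream of the start had a GC content of at most 70.8%. For MGME1 the start in this set lies inside the RefSeq span, so its window is not upstream of the whole gene. The NRF1 motif, searched on both strands, was GCGCA followed by any 1 base and GCGC, which reads GCGC, any base and TGCGC on the opposite strand. It was present upstream of TFAM, POLG2, POLRMT and TFB1M, 4 of the 8 genes, and in 7.65% of 15843 protein-coding promoters. The ETS motif CCGGAAGT, of the kind bound by GABPA (NRF-2), was present only upstream of POLRMT among the 8, and in 5.09% of all promoters. A match of letters is a description and not a site that was shown to be bound.

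The upstream windows of TFAM and TFB1M are shown whole because they hold an NRF1 match and overlap no other RefSeq gene. The match starts 63 bases before the TFAM start and 132 bases before the TFB1M start. For POLRMT and POLG2, whose windows overlap LOC105372234 and MILR1, 30 bases around the match are shown. The POLRMT stretch has 2 overlapping matches that start 24 and 18 bases before the gene, and the POLG2 match starts 14 bases before it. All are written 5′ to 3′ on the strand of the gene, from RefSeq on GRCh38.p14, with the NRF1 match in capitals.
TFAM, chr10:58385160-58385409, plus strand: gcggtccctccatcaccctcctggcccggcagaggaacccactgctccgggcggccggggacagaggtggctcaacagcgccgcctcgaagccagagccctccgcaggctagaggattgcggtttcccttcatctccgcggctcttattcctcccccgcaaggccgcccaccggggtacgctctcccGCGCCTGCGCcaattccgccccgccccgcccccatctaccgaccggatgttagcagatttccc
TFB1M, chr6:155314485-155314734, minus strand: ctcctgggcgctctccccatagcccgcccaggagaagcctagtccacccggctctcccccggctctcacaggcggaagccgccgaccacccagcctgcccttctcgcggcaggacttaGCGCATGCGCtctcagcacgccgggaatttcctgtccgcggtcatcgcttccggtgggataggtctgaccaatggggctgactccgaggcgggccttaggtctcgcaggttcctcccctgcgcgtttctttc
POLRMT, chr19:633539-633568, minus strand: ggcgcggGCGCATGCGCAGGCGCgggccgg
POLG2, chr17:64497055-64497084, minus strand: cacgctcacctccgttGCGCCTGCGCcgtg

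Libraries held between 442159 and 3539937 counts, with means of 877000 ± 283500 on day 3 and 2197000 ± 750000 on day 28 (SD, n = 9 each). Counts on the 37 mitochondrial genes took 32.7% to 45.6% of a library on day 3 and 63.6% to 68.5% on day 28. Replicates differed by more than sampling noise in all 18 pairs within groups, so no library was found to be deposited under more than 1 replicate label of its group. Libraries of different groups were not compared in this way. The label of the line could not be checked from markers in this assay. Levels are in CPM (read counts scaled to a common library size). Of genes that HEK293T cells express, PAX2 had 7.51 to 23.3, LHX1 7.67 to 20.1, LIN28B 7.51 to 27.5 and SALL4 4.00 to 14.3 CPM. The blood genes PTPRC and SPI1 were no lower, with 6.85 to 22.8 CPM and 11.6 to 29.4 CPM. CD3E, a T cell gene, had 0 to 5.22 CPM. KMT2A, the gene from which both fusions take their MLL part, was higher in AF4-MLL cells than in MLL-AF4 cells on both days, by 1.39 on the log2 scale on day 3 (SE 0.17, adjusted p = 1.71e-10) and by 1.06 on day 28 (SE 0.14). The constructs carry parts of this gene. The co-expression setting, with both fusions, had intermediate means. They were 35.75 (MLL-AF4), 52.8 (co-expression) and 96.55 CPM (AF4-MLL) for day 3, and 45.4, 67.4 and 94.0 CPM for day 28. The gap between co-expression and AF4-MLL was called at both times (log2 -0.83 with adjusted p = 9.06e-06, then -0.45 with adjusted p = 0.0295). The gap between co-expression and MLL-AF4 was called on day 28 (log2 0.62, adjusted p = 0.0072) but not on day 3 (log2 0.56, adjusted p = 0.0876). Whether the constructs account for these levels was not tested.

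Counts of the 10 genes were low. The sum over all 10 was 154 to 500 per library, and a single gene had between 2 counts (NRF1, co-expression day 3, replicate 2) and 120 counts (TFAM, co-expression day 28, replicate 1). Levels are given as normalised CPM, the usual count unit per sequencing depth, with each library size scaled by edgeR's TMM factors. Per kilobase of the RefSeq gene span, the mean level over 18 libraries was highest for TFAM (4.20 CPM per kb), followed by SSBP1 (2.53), POLRMT (1.65) and MGME1 (1.52 CPM per kb). It was lowest for TFB1M (0.217), NRF1 (0.0624) and PPARGC1A (0.0154 CPM per kb), whose spans are the longest of the 10. Over 13550 genes the mean count and the span had a Spearman's rho of 0.032, so counts did not scale with span. The region that was counted for each gene is not given in the sources used here.

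**Figure D1:**
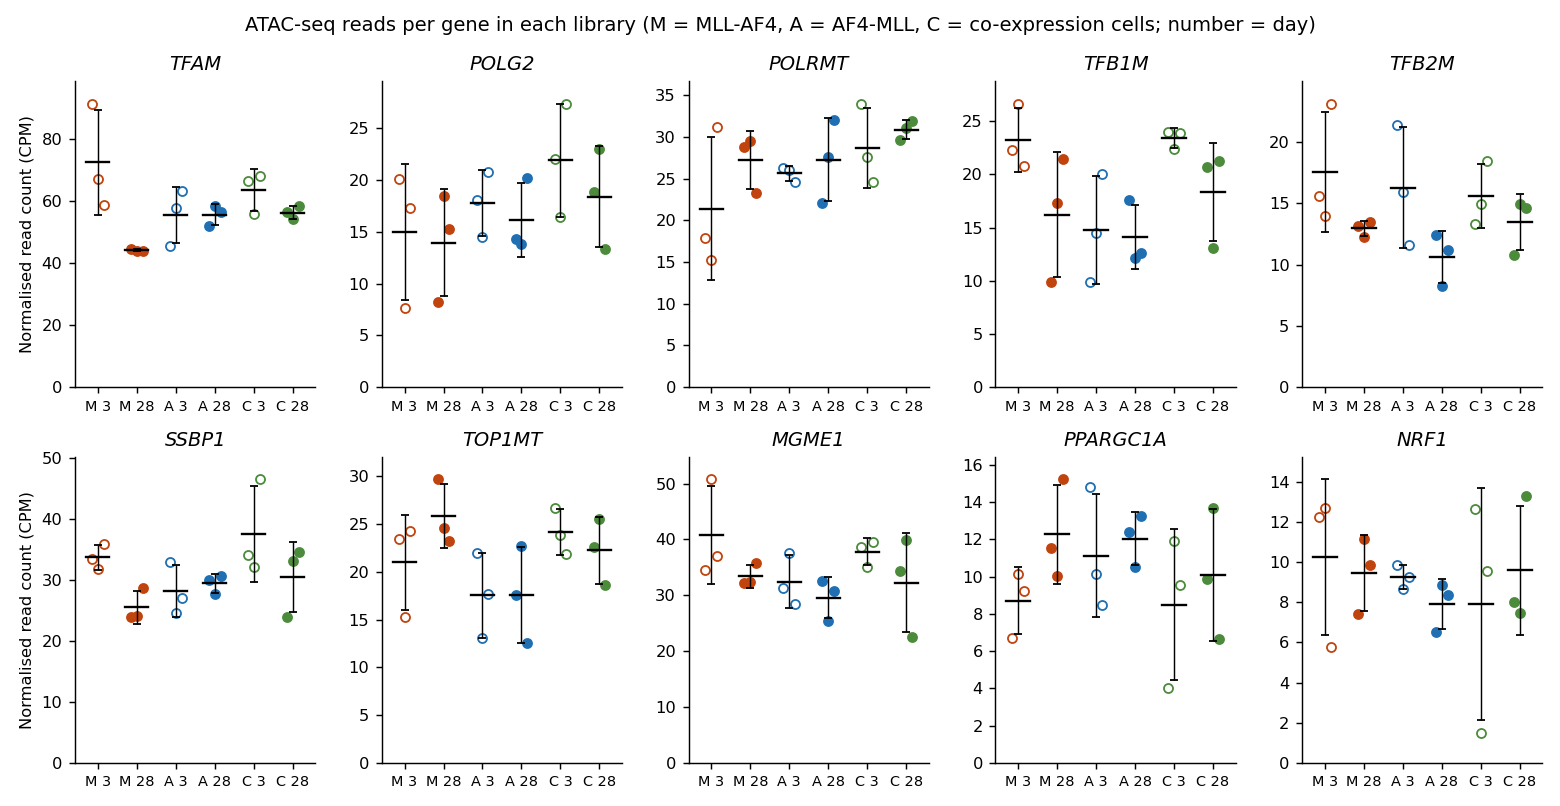
Normalised read count (CPM, y axis from 0) of each of the 10 genes in the 18 libraries, by setting and day (x axis). Points are libraries, horizontal lines the mean of 3 and bars the SD. TFAM in MLL-AF4 cells sits between 59.0 and 91.5 CPM on day 3 and between 43.9 and 44.5 CPM on day 28, while most other genes overlap between groups.

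TFAM, the nucleoid and promoter factor, was the only gene of the 10 that passed the test in any contrast, and it was lower on day 28 than on day 3 in MLL-AF4 cells. The 3 day 3 libraries of MLL-AF4 cells had 91.5, 67.2 and 59.0 CPM, from 82, 53 and 51 counts. The 3 day 28 libraries had 44.5, 44.1 and 43.9 CPM, from 54, 79 and 49 counts. The groups did not overlap, and the day 28 libraries lay closer together (44.1 ± 0.33 CPM, SD, n = 3) than the day 3 libraries (72.6 ± 16.9 CPM, SD, n = 3). The log2 difference was -0.72 (SE 0.16, 95% interval -1.04 to -0.40, adjusted p = 0.0019 over 17660 genes). In this contrast 2.87% of all genes were called, 228 higher and 278 lower. The call rested on replicate 1 of day 3: without it the log2 difference was -0.52 with an adjusted p of 0.177. In bulk nuclei, fewer cells with an open TFAM gene and fewer insertions per cell cannot be told apart.

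In AF4-MLL cells TFAM had 45.5, 57.9 and 63.2 CPM on day 3 and 52.1, 58.6 and 56.5 CPM on day 28. The groups overlapped, and the log2 difference was 0.05 with a 95% interval of -0.24 to 0.34. In co-expression cells TFAM had 66.7, 55.9 and 68.3 CPM on day 3 and 56.4, 54.2 and 58.5 CPM on day 28. These overlapped as well, and the log2 difference was -0.19 (95% interval -0.46 to 0.09). The difference between the settings was itself tested. The change over time in AF4-MLL cells exceeded that in MLL-AF4 cells by 0.77 on the log2 scale (SE 0.22), with an adjusted p of 0.089 that missed the threshold, and 0.317% of genes were called in this interaction. Over its alternatives the adjusted p ranged from 0.048 to 0.505. Without MLL-AF4 day 3 replicate 3 this difference was 0.90 with an adjusted p of 0.048, without MLL-AF4 day 3 replicate 1 it was 0.56 (adjusted p = 0.468), and without AF4-MLL day 3 replicate 1 it was 0.59 (adjusted p = 0.422). Between co-expression and MLL-AF4 cells the changes differed by 0.53 (SE 0.21, adjusted p = 0.346, 0.232% of genes called), and between co-expression and AF4-MLL cells by -0.24 (SE 0.20). The lower level on day 28 is therefore not shown to differ between settings.

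Ordered by mean level, TFAM was highest in MLL-AF4 cells on day 3 (72.6 CPM), then in co-expression cells on day 3 (63.6 ± 6.7) and day 28 (56.4 ± 2.2), AF4-MLL cells on day 28 (55.7 ± 3.3) and day 3 (55.5 ± 9.1), and MLL-AF4 cells on day 28 (44.1 CPM). Neighbours among the first 5 groups overlapped. The 3 libraries of MLL-AF4 cells on day 28 lay below all 15 other libraries, of which the nearest had 45.5 CPM. On day 28 the log2 differences of TFAM to MLL-AF4 cells were 0.34 in co-expression cells (SE 0.15, adjusted p = 0.330) and 0.34 in AF4-MLL cells (SE 0.15, adjusted p = 0.520). On day 3 the difference of AF4-MLL to MLL-AF4 cells had the opposite sign, -0.43 (SE 0.16, adjusted p = 0.328).

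The 50 tested genes nearest to TFAM on chromosome 10, 25 on each side, had a median log2 difference of -0.10 between the days in MLL-AF4 cells, and of 0.07 and 0.06 in AF4-MLL and co-expression cells. The genes whose levels resembled TFAM most over the 18 libraries, among 6104 genes whose mean count was 30 or more, included CCDC74A (Pearson's r 0.84) and BCL10 (0.78). Both were also lower on day 28 in MLL-AF4 cells, by log2 differences of -0.74 and -0.93 with adjusted p-values of 0.0166 and 1.3e-07. The libraries behind these likenesses are the ones that gave the contrast, so the second value adds nothing independent to the first.

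**Figure D2:**
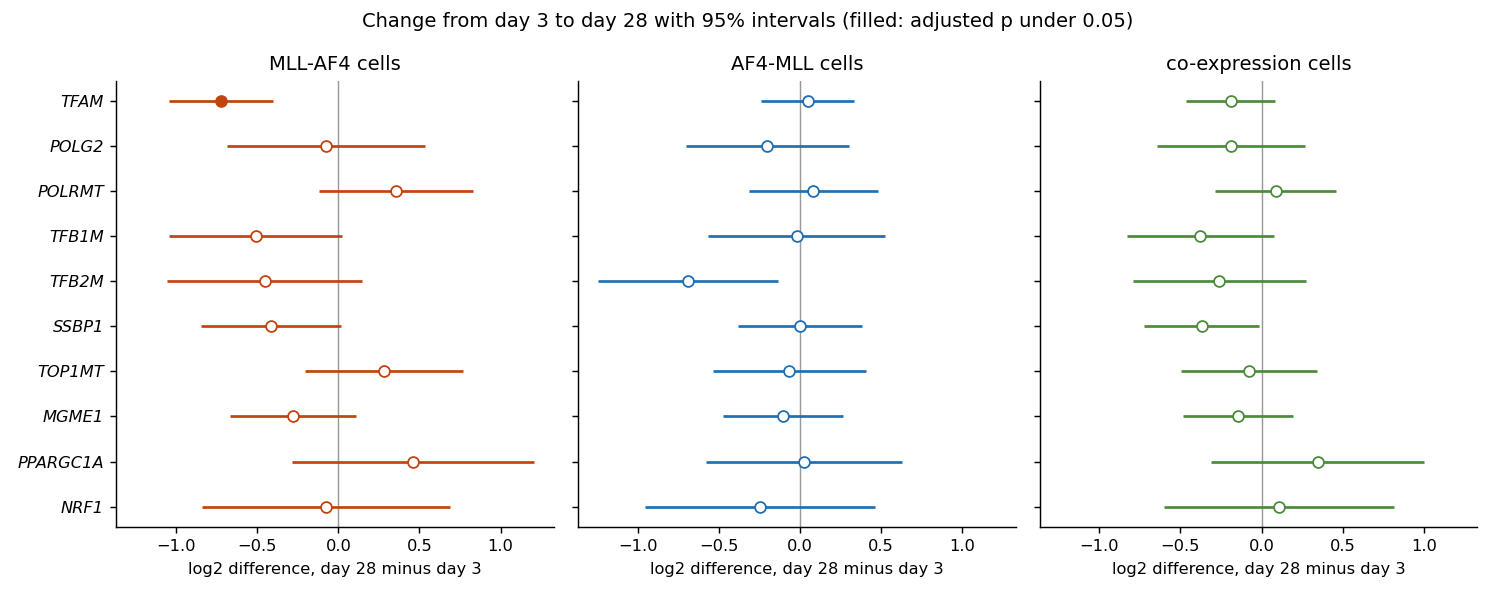
Log2 difference between day 28 and day 3 (x axis, negative is lower on day 28) of the 10 genes (y axis) in each setting, with 95% intervals. The filled point, TFAM in MLL-AF4 cells at -0.72, is the only one with an adjusted p under 0.05.

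The genes for transcription initiation other than TFAM gave no call between the days. In MLL-AF4 cells POLRMT, the RNA polymerase, had 17.9, 15.2 and 31.2 CPM on day 3 and 28.8, 29.6 and 23.3 CPM on day 28, and the groups overlapped (log2 0.35, 95% interval -0.12 to 0.83). Its log2 differences in AF4-MLL and co-expression cells were 0.08 and 0.09. POLRMT lies near the end of chromosome 19, and its 33 tested neighbours had a median log2 difference of 0.44 in the same MLL-AF4 contrast. In the same cells TFB2M, the initiation factor, had 15.6, 14.0 and 23.1 CPM on day 3 and 13.2, 12.3 and 13.4 CPM on day 28. All day 28 values were below all day 3 values, but the log2 difference of -0.45 had a 95% interval from -1.05 to 0.15.

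In AF4-MLL cells TFB2M had 21.4, 15.9 and 11.6 CPM on day 3 and 12.4, 8.29 and 11.2 CPM on day 28. The groups overlapped, and the log2 difference was -0.69 (SE 0.28, adjusted p = 0.375). It was -0.32 without day 3 replicate 1 and -0.91 without day 3 replicate 3. Its start lies 195 bases from that of CNST. TFB1M, the ribosomal RNA methyltransferase, overlaps TIAM2 and CLDN20 and can share their reads. In co-expression cells it had 24.0, 22.4 and 23.9 CPM on day 3 and 20.7, 13.1 and 21.3 CPM on day 28, again without overlap and without a call (log2 -0.38, SE 0.23, adjusted p = 0.626). In MLL-AF4 cells the log2 difference of TFB1M was larger, -0.51 (SE 0.27, adjusted p = 0.3525), with overlap. In AF4-MLL cells it was -0.02.

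Among the replication genes, SSBP1, the single-strand binding protein, came closest to a call between the days. In MLL-AF4 cells SSBP1 had 33.5, 31.7 and 35.8 CPM on day 3 and 23.9, 24.0 and 28.6 CPM on day 28, and the groups did not overlap. The log2 difference of -0.42 (SE 0.22) had an adjusted p of 0.341. In co-expression cells the values were 34.0, 32.1 and 46.5 CPM on day 3 and 24.0, 33.0 and 34.6 CPM on day 28, with a log2 difference of -0.37 (SE 0.18, adjusted p = 0.501). In AF4-MLL cells the log2 difference was 0.00 (95% interval -0.38 to 0.38).

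The other replication genes overlapped between the days in every setting. POLG2, the polymerase's accessory subunit, ranged from 7.61 CPM to 27.3 CPM over the 18 libraries, and its log2 differences were -0.20 in AF4-MLL, -0.08 in MLL-AF4 and -0.19 in co-expression cells. MGME1, the exonuclease, had group means between 29.6 and 40.8 CPM and log2 differences of -0.10, -0.28 and -0.15 in the same order. Its start in the promoter set lies 224 bases from the divergent start of SNX5, which also overlaps it, and reads carry no strand information in this assay. TOP1MT, the topoisomerase, had log2 differences of -0.07, 0.28 and -0.08.

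The regulators NRF1 and PPARGC1A were the genes with the fewest counts and the widest errors. NRF1 had 2 to 20 counts in a library and group means between 7.91 and 10.3 CPM, and its log2 differences between the days were -0.24, -0.08 and 0.11. The SE of these differences was 0.36 to 0.39. PPARGC1A had 5 to 27 counts and log2 differences of 0.03, 0.46 and 0.35 in AF4-MLL cells, then MLL-AF4 cells and then co-expression cells, with the widest interval (-0.28 to 1.21) in MLL-AF4 cells. Neither gene separated the days in any setting.

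Between the days, 1 of the 10 genes was called in MLL-AF4 cells, against 2.87% of all genes. There 1 of the 10 (TFAM) had an unadjusted p under 0.05, against 15.8% of all genes. In AF4-MLL cells 0 of the 10 were called by edgeR, against 0.606% of all genes, and 1 of the 10 (TFB2M) had an unadjusted p under 0.05, against 9.29% of all genes. In co-expression cells 0 were called, against 0.606% of all genes, and 1 (SSBP1) had an unadjusted p under 0.05, against 9.51%. Limma-voom called 0 of the 10 in both of these settings. DESeq2 gave an adjusted p for 4 of the 10 in AF4-MLL cells and for 9 of the 10 in co-expression cells, and called 0 of those. The median log2 difference of the 10 genes was -0.04 in AF4-MLL, -0.18 in MLL-AF4 and -0.17 in co-expression cells, where that of all genes was 0.00 in each. Groups that did not overlap were found for 0, 3 (TFAM, TFB2M and SSBP1, all lower on day 28) and 1 (TFB1M, lower) of the 10 genes in these settings. Over all genes the shares were 14%, 20.4% and 14.2%.

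Between settings, 0 of the 10 genes passed the test in any of 6 contrasts. The shares of all genes called were 1.81% for co-expression against MLL-AF4 cells, 1.28% for co-expression against AF4-MLL cells and 0.142% for AF4-MLL against MLL-AF4 cells on day 3. On day 28 they were 1.17%, 1.69% and 0.0793% in the same order. The number of the 10 genes with an unadjusted p under 0.05 was 0, 1 and 2 on day 3, where 14.5%, 12.3% and 9.55% of all genes had one, and 1, 0 and 2 on day 28, where the shares were 11.8%, 12.7% and 8.26%. Limma-voom called 0 of the 10. DESeq2 gave an adjusted p for 1 to 10 of the 10 genes, depending on the contrast, and called 0 of those. Contrasts that share a group share its libraries, so these counts are not independent of each other.

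TFB1M had the largest of these differences. On day 3 its 3 AF4-MLL libraries had 9.86, 14.5 and 20.04 CPM, below the lowest library of co-expression cells (22.4 CPM) and of MLL-AF4 cells (20.8 CPM). The log2 difference of co-expression to AF4-MLL cells was 0.72 (SE 0.25, adjusted p = 0.147), and that of AF4-MLL to MLL-AF4 cells was -0.70 (SE 0.28, adjusted p = 0.398). The first moved between 0.38 and 1.07 and the second between -0.36 and -1.05 when single libraries were left out. On day 28 the same differences were 0.36 and -0.21, and the groups overlapped.

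Besides TFAM, TOP1MT was the gene with an unadjusted p under 0.05 on day 28. It had 29.7, 24.6 and 23.3 CPM in MLL-AF4 cells and 17.6, 22.7 and 12.6 CPM in AF4-MLL cells, without overlap (log2 -0.52, SE 0.22, adjusted p = 0.493). POLRMT on day 28 had 29.6, 31.1 and 31.9 CPM in co-expression cells, just above the highest MLL-AF4 library (29.57 CPM), with a log2 difference of 0.15 (95% interval -0.23 to 0.53). Counting both directions, 0, 1 and 1 of the 10 genes had groups without overlap on day 3, against 19%, 16.5% and 14% of all genes in the contrasts of co-expression cells with MLL-AF4 cells, of co-expression cells with AF4-MLL cells, and of the inducible settings with each other. On day 28 there were 2, 0 and 2 genes, against 16%, 16.8% and 13.4%.

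The interactions asked whether the change over time depended on the setting. None of the 10 genes was called in any of the 3, and only TFAM had an unadjusted p under 0.05, in the 2 that involve MLL-AF4 cells, where 9.73% and 9.75% of all genes had one. In the interaction of co-expression and AF4-MLL cells, 0% of all genes were called by edgeR, 892 had an unadjusted p under 0.05, and DESeq2 and limma-voom called 0. Over the 90 tests between groups, the SE of the log2 difference was 0.14 to 0.40, and 95% intervals reached from -1.26 to 1.22. In 78 of the 90 tests the interval lay within 1 on either side of 0, and in 81 it held 0. Misses of the threshold in the remaining genes do not show that their levels were equal.

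The percent of counts on mitochondrial genes was higher in each of the day 28 libraries than in any day 3 library. It was 38.3% ± 4.9 on day 3 and 65.3% ± 2.4 on day 28 in AF4-MLL cells, 44.0% ± 1.8 and 65.0% ± 0.83 for MLL-AF4, and 39.4% ± 5.9 and 65.5% ± 2.6 in co-expression cells (SD, n = 3 each). The differences were 26.9, 21.1 and 26.1 percentage points, and the groups did not overlap. The exact permutation p was 0.1 in each, the smallest that 3 libraries against 3 allow (0.3 adjusted over 9 comparisons).

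On day 28 the mean mitochondrial share was 65.0% in MLL-AF4, 65.3% in AF4-MLL and 65.5% in co-expression cells, and TFAM was at 44.1, 55.7 and 56.4 CPM, differences that did not pass the test (above). On day 3, MLL-AF4 cells had both the highest mean share (44.0%) and the highest mean TFAM level (72.6 CPM), and the exact permutation p of the share was 0.2 against either other setting, in a design that cannot go below 0.1. Across days, the sum of the 10 genes was 223 to 290 CPM on day 3 and 209 to 256 CPM on day 28, with overlap. In MLL-AF4 cells the sums were 251 to 278 CPM on day 3 and 209 to 230 CPM on day 28, without overlap, and TFAM is part of these sums.

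Because the days form separate clusters, the relation of each gene with the mitochondrial share was computed within a day, over 9 libraries and on log2 of nuclear CPM plus 1, where nuclear CPM takes the nuclear counts as the library size. None of the 20 relations passed the adjusted threshold. TFAM had a Pearson's r of 0.19 (exact permutation p = 0.587) and a Spearman's rho of 0.43 (p = 0.250) on day 3, and of 0.06 (exact permutation p = 0.890) and -0.22 (p = 0.581) on day 28. Without the 2 libraries farthest from the median share, r was 0.75 and -0.68, so both values depended on those libraries.

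By Pearson's r, TFB2M and SSBP1 had the strongest relations, both negative and both on day 28. For TFB2M r was -0.77 (exact permutation p = 0.0165, 0.281 adjusted over 20) and rho was -0.65 (p = 0.0666). Without the 2 farthest libraries r was -0.17, so the relation rests on those libraries. For SSBP1 r was -0.72 (exact permutation p = 0.0281, 0.281 adjusted over 20) and rho was -0.75 (p = 0.0255), and r was -0.83 without the 2 farthest. With group means removed r was -0.97 for TFB2M and -0.89 for SSBP1, a description without a test in which the farthest libraries were kept. With the pseudogene copies of mitochondrial DNA left out of the nuclear counts, r was -0.73 for TFB2M and -0.66 for SSBP1. Their exact permutation p, adjusted over 20, was 0.512 and 0.569. On the TMM scale r was -0.72 for TFB2M (exact permutation p = 0.0286) and -0.64 for SSBP1 (exact permutation p = 0.0662). On day 3 the r of these genes was -0.36 and -0.17 in nuclear CPM. By rank, PPARGC1A on day 28 had a rho of -0.77 (exact permutation p = 0.0214, 0.255 adjusted over 20), where its r was -0.44.

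The scale decides how the 10 genes compare with the share across days. Nuclear pseudogene copies of mitochondrial DNA, 384 genes by symbol, took 4.43% to 7.66% of nuclear counts on day 3 and 16.0% to 19.8% on day 28. In nuclear CPM, the 10 genes together had 518 to 678 on day 3 and 413 to 517 on day 28, without overlap. With the copies left out of the total they had 542 to 710 and 499 to 615, with overlap. Scaled by the whole library, which includes the mitochondrial counts, the median log2 difference of all genes between the days was -1.06 in AF4-MLL, -0.87 in MLL-AF4 and -1.07 in co-expression cells, and the 10 genes had medians of -1.10, -1.06 and -1.24. On that scale POLRMT and others turned from a higher to a lower value, and the TMM scale is used for every difference between groups given here.

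Other genes of the pathway were taken from 4 lists with 65 genes, of which 63 were tested. Of 15 nuclear regulators of mitochondrial biogenesis, 2 were called between the days, both lower on day 28 in MLL-AF4 cells like TFAM. In this contrast 2.87% of all genes were called. An unadjusted p under 0.05 was found for 2 of the 15, against 15.8% of all genes. GABPA, the DNA-binding subunit of NRF-2, had 77.0, 69.8 and 69.4 CPM on day 3 and 38.7, 46.3 and 56.4 CPM on day 28 (log2 -0.62, SE 0.16, adjusted p = 0.0127). CREB1, a cAMP-responsive transcription factor, had 65.8, 55.8 and 67.0 CPM on day 3 and 33.8, 48.0 and 32.2 CPM on day 28 (log2 -0.68, SE 0.17, adjusted p = 0.0099). Neither pair of groups overlapped. The median log2 difference of the list was -0.03. In AF4-MLL and co-expression cells the log2 differences of GABPA were 0.01 and -0.10, and those of CREB1 were 0.03 and -0.01. None of the 15 regulators was called in an interaction, so these changes are not shown to differ between settings. Mean GABPA was 72.0 CPM in the MLL-AF4 day 3 group and 47.1 CPM in the MLL-AF4 day 28 group. The groups of the other settings had means of 44.0 to 53.2 CPM. For CREB1 the means were 62.9 CPM, 38.0 CPM and 42.4 to 50.6 CPM in the same order. Leaving out single MLL-AF4 libraries ended the GABPA call in 3 of 6 cases (day 3 replicate 1, day 28 replicates 1 and 2; log2 -0.52 to -0.74). It ended the CREB1 call in 4 of 6 (day 3 replicates 1 and 3, day 28 replicates 1 and 3; log2 -0.59 to -0.94). Without the filter on low counts neither was called (adjusted p = 0.0915 and 0.0668), and with a loess offset GABPA was not (adjusted p = 0.0517). GABPA overlaps ATP5PF and CREB1 overlaps METTL21A, with which they can share reads.

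HCFC1, a host cell factor that serves as a coregulator of transcription, was the one other regulator called. It was called in a contrast where 1.81% of all genes were. On day 3 it had 83.3, 92.5 and 103.8 CPM in co-expression cells and 61.4, 62.2 and 55.5 CPM in MLL-AF4 cells (log2 0.64, SE 0.15, adjusted p = 0.0041). Without MLL-AF4 day 3 replicate 3 the adjusted p was 0.051. It overlaps HCFC1-AS1, and reads of the pair cannot be told apart. Of the 17 tested genes for elongation, termination and processing of mitochondrial transcripts, 0 were called in 12 contrasts, and 0 to 4 of them per contrast had an unadjusted p under 0.05, against 5.05% to 15.8% of all genes. The list medians were between -0.25 and 0.29.

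Of 15 nucleoid and replication partners only CLPX, the unfoldase subunit of a matrix protease, was called. This was on day 3 in co-expression cells against MLL-AF4 and AF4-MLL cells, where 1.81% and 1.28% of all genes were called. An unadjusted p under 0.05 was found for 2 and 4 of the 15, against 14.5% and 12.3% of all genes. CLPX was higher in co-expression cells. On day 3 it had 12.7, 12.7 and 21.9 CPM in co-expression cells, 4.46, 5.07 and 6.94 CPM in MLL-AF4 cells and 6.03, 7.23 and 8.48 CPM in AF4-MLL cells. Its log2 difference was 1.51 (SE 0.39, adjusted p = 0.0182) to the first and 1.14 (SE 0.33, adjusted p = 0.0469) to the second, from 4 to 32 counts per library. Both calls were lost with limma-voom and without co-expression day 3 replicate 3, and DESeq2 gave neither an adjusted p. The first was also lost without replicate 1 or 2 of MLL-AF4 cells, and the second without any 1 of the 3 AF4-MLL libraries, without the filter on low counts, with library size alone and with only the groups compared in the fit.

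Of 16 genes of deoxynucleotide supply, 3 were called, in contrasts of co-expression cells with MLL-AF4 and AF4-MLL cells. In these 1.81% and 1.28% of all genes were called on day 3, and 1.17% and 1.69% on day 28. An unadjusted p under 0.05 was found for 3 and 2 of the 16 on day 3, against 14.5% and 12.3% of all genes. On day 28 it was 5 and 5, against 11.8% and 12.7%. DUT, the dUTPase that keeps uracil out of DNA, was higher in co-expression cells. On day 3 it had 46.7, 42.5 and 42.4 CPM there, 19.0, 22.8 and 23.1 CPM in MLL-AF4 cells and 24.7, 26.0 and 17.7 CPM in AF4-MLL cells. DUT differed by 1.02 (SE 0.22, adjusted p = 0.0014) and 0.96 (SE 0.19, adjusted p = 6.4e-04) on the log2 scale, and both calls held in all 17 alternatives tried. On day 28 the log2 difference to AF4-MLL cells was 0.70 (SE 0.19, adjusted p = 0.0323) and to MLL-AF4 cells 0.59, the second without a call. DESeq2 did not call the first either, nor did fits without replicate 1 or 2 of either group, without the filter on low counts or with library size alone. DUT and CLPX both lie on chromosome 15. The 50 neighbours of DUT had medians of 0.66 and 0.64 on day 3 and 0.60 on day 28 in the contrasts where it was called, and those of CLPX had 0.50 and 0.38.

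TYMP, the thymidine phosphorylase that breaks down thymidine, was lower in co-expression cells. On day 28 it had 19.3, 16.8 and 25.3 CPM there, 41.0, 43.1 and 29.99 CPM in AF4-MLL cells and 40.4, 30.7 and 33.1 CPM in MLL-AF4 cells. The log2 differences were -0.98 (SE 0.19, adjusted p = 4.2e-04) and -0.81 (SE 0.20, adjusted p = 0.0153), and on day 3 it was -0.76 to AF4-MLL cells (SE 0.20, adjusted p = 0.0196). The first call held in all 17 alternatives. DESeq2 did not make the other calls, which were also lost without 1 of 3 libraries each: on day 28 co-expression replicate 1 or 2 or MLL-AF4 replicate 1, and on day 3 AF4-MLL replicate 1 or 3 or co-expression replicate 3. The day 3 call was also lost without the filter on low counts and with library size alone. TYMP lies near the end of chromosome 22 and overlaps SCO2, and its 32 neighbours had medians of -0.62, -0.68 and -0.58 in these contrasts. TYMS, the thymidylate synthase, had 12.7, 10.6 and 9.31 CPM in co-expression cells and 27.2, 23.4 and 17.9 CPM in MLL-AF4 cells on day 28 (log2 -1.02, SE 0.26, adjusted p = 0.0207). DESeq2 did not call it, and the call was lost when any library other than MLL-AF4 replicate 3 was left out. TYMS overlaps TYMSOS and ENOSF1.

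**Figure D3:**
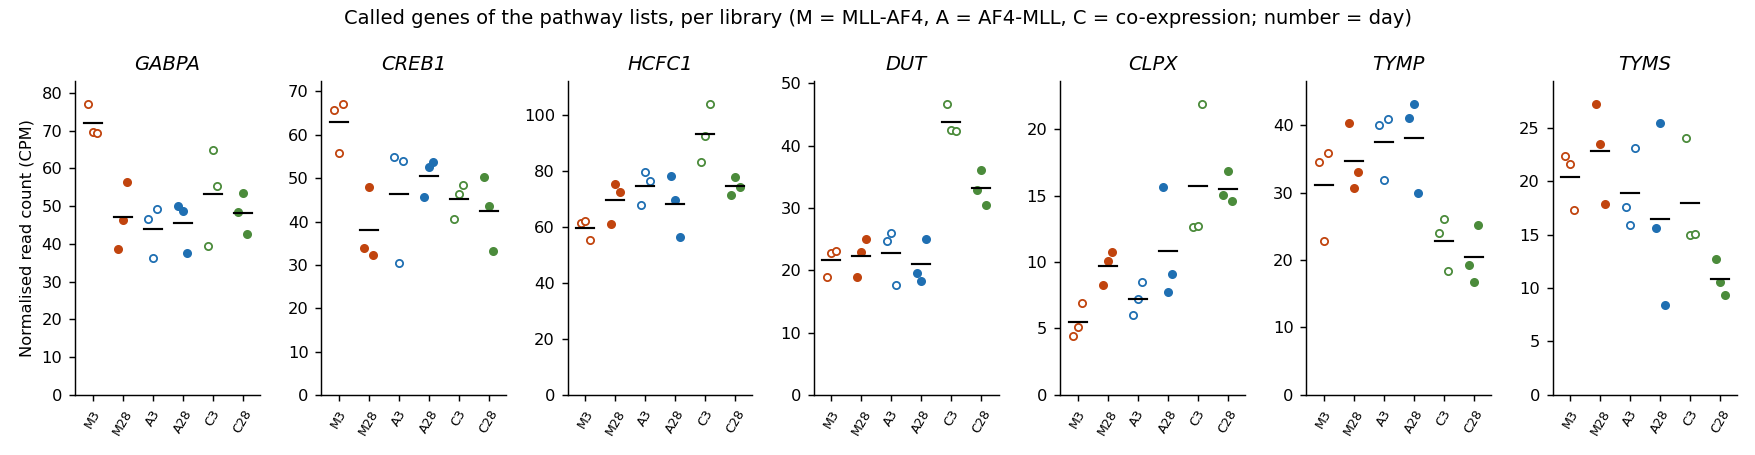
Normalised read count (CPM, y axis from 0) of the 7 called genes of the pathway lists in each library, by setting and day (x axis), with horizontal lines at the mean of 3. GABPA and CREB1 fall from day 3 to day 28 in MLL-AF4 cells, and DUT lies between 30.6 and 46.7 CPM in co-expression cells, above every other library.

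Position on the chromosome was compared for the 10 genes as well. Over all contrasts the medians of their neighbours ranged from -0.54 to 0.44. POLRMT followed its neighbours in the largest of its differences, 0.42 against a neighbour median of 0.38 for co-expression against MLL-AF4 cells on day 3. TFB2M, near the end of the long arm of chromosome 1, did not: its neighbours had medians of -0.54 and -0.47 for co-expression against MLL-AF4 and AF4-MLL cells on day 3, where TFB2M had log2 differences of -0.18 and -0.12. The difference of a gene from its neighbours was not tested, for these genes or for DUT, CLPX and TYMP. Their calls are therefore not shown to be separate from shifts of their regions.

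Levels of the 10 genes were also compared with each other. Over the 45 pairs, Pearson's r of the log2 levels across the 18 libraries ranged from -0.64 to 0.57 with a median of 0.02, and the median over pairs of all genes whose mean count was 30 or more was 0.01. The 4 genes with the NRF1 match shown above had log2 differences of -0.72 (TFAM), -0.08 (POLG2), 0.35 (POLRMT) and -0.51 (TFB1M) between the days in MLL-AF4 cells, of which the first passed the test. A start of another gene within 1000 bases in the opposite direction was present for 4 of the 8 genes in the promoter set (TFB2M, SSBP1, MGME1 and PPARGC1A). The share was 18.3% of protein-coding promoters.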

How the data were processed

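ATAC-seq reads were counted per gene in 18 HEK293T libraries, grouped by the labels into 3 settings and 2 days with 3 replicates each. The authors deposited raw counts as 1 table with 54425 genes. The submitters' processing notes name bcl2fastq, Bowtie2, HTSeq and the build GRCh38. The annotation, the region counted per gene and the handling of duplicate reads and of the transposase offset are not given in the sources used here; duplicates or a wide region would add reads that are not separate insertions.

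Counts were fitted in R 4.3.3 with edgeR 4.0.16 (TMM, filterByExpr with a minimum count of 10 and a minimum total of 15, 6 groups, quasi-likelihood F tests) in 12 contrasts. A gene was called at a Benjamini-Hochberg adjusted p-value under 0.05 over 17660 genes. The study used DESeq2. Here DESeq2 1.42.0 and limma 3.58.1 (voom) were alternatives, beside other normalisations, filters, a replicate block and leaving out single libraries. Removal of the mitochondrial genes with their pseudogene copies was added after the data were seen. The fit was tested on simulated data. Shares were compared by exact two-sided permutation tests in Python 3.11.15. Intervals are at 95%.

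The 10 genes and the lists were chosen with earlier results of these data known. Named are the 10 genes, list genes called in a contrast (at most 3 per list and contrast), the 3 genes most like TFAM and KMT2A; 1 of the 3 and 1 blood marker are not reported here. The labels do not say whether replicates are separate cultures, though the methods call them biological, so p-values measure the spread between these libraries. Neighbours and promoters came from RefSeq on GRCh38.p14, which held all 10 genes, and the promoter set used here held 8 of them. Replicate numbers did not pair the libraries.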

Additional observations from a re-analysis of the deposited data

How the results depend on the processing

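Outside scaling by library size alone, 2023 of 2025 values of the 10 genes under alternatives kept their side of the threshold. Only 1 of the 120 tests of these genes was called, so most of these values are uncalled results that stayed uncalled. DESeq2 gave no adjusted p for 48 of its 120 values of the 10 genes, which are not counted. The exceptions concern TFAM: without MLL-AF4 day 3 replicate 1 its call between the days was lost (log2 -0.52, adjusted p = 0.177), and without MLL-AF4 day 3 replicate 3 the interaction of AF4-MLL and MLL-AF4 cells passed (log2 0.90, adjusted p = 0.048). The number of the 10 genes called thus ranged from 0 to 1 in each of these contrasts when single libraries were left out. Outside that scaling the TFAM difference was called in 15 of 16 alternatives, with log2 values from -0.52 to -0.86. Scaling by library size alone, which moved all genes, gave -1.60. Over all 17 alternatives the adjusted p ranged from 2.3e-13 to 0.177. With cut-offs like the study's (unadjusted p, log2 over 1, mean count over 2), applied here to the edgeR fit, 0 of the 10 were selected between the days in MLL-AF4 cells. Their log2 differences there ran from -0.72 to 0.46, so the cut-off on size alone left none. Signs of uncalled differences changed in 139 of the 2025 values, all of them under 0.36 in size.

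Scaled by library size alone, 10, 8 and 10 of the 10 genes were called lower on day 28 in AF4-MLL cells, then MLL-AF4 cells and then co-expression cells, where 15485, 11457 and 15566 of all genes were called. The library total includes the mitochondrial counts, and this scaling moved the median of all genes by about the same amount. Values that turned from higher to lower between the days and were called were, in AF4-MLL cells, TFAM -1.03, POLRMT -0.97, SSBP1 -1.04 and PPARGC1A -1.01, in MLL-AF4 cells TOP1MT -0.60, and in co-expression cells POLRMT -0.97, PPARGC1A -0.73 and NRF1 -0.94. POLRMT (-0.53) and PPARGC1A (-0.41) turned in MLL-AF4 cells without a call.

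The replicate block called 1 of the 10 between the days in MLL-AF4 cells (TFAM) and changed no other call of the 10. Deviations of libraries with the same number correlated between -0.05 and 0.016, so the numbers did not pair them. At a minimum count of 30, 8 of the 10 were left.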
